A study of Mus musculus with 15 samples.

Results

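Small-colony cardiac fibroblast progenitors kept in PDGF-AB were compared at passage 15 and passage 5, to describe how their transcriptome changed with time in culture under the growth factor. The comparison used 6 of the 15 arrays of the series, chosen by their labels: 3 arrays of PDGF-AB-treated small colonies at passage 15 and 3 at passage 5. The cells were cardiac colony-forming unit fibroblasts (cCFU-F), stromal cells of the adult heart that give rise to colonies when plated sparsely. They came from C57BL/6 mice labelled male and aged 12 weeks, and had been sorted as SCA1+ PDGFRα+ CD31-. PDGF-AB was given at 50 ng/ml. The other arrays, 3 in each group, were from untreated large colonies at passage 15, untreated large colonies at passage 5 and untreated small colonies at passage 5. Untreated small colonies at passage 15 were not analysed here, so time in culture and time under PDGF-AB cannot be told apart in the treated cells. Nothing in the labels tells if replicate arrays stand for different cultures or mice. The p-values therefore cover array-to-array spread alone, and that spread may be technical.

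PDGF-AB is a dimer of an A and a B chain that binds the receptor tyrosine kinases PDGFRα and PDGFRβ. The activated receptors signal through the ERK and PI3K pathways, induce immediate early transcription factors such as FOS and EGR1, and drive division and migration of mesenchymal cells. Feedback genes such as the Spry, Spred and Dusp families dampen the ERK branch. In the heart, PDGFRα marks fibroblasts and their progenitors, and the transcription factor TCF21 is needed for fibroblasts to form from the epicardium. Fibroblasts in culture can take on a contractile, matrix-producing myofibroblast state, and cultures that have divided many times can stop dividing through p53 and the CDK inhibitors of the Cdkn genes.

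All values are log2 intensities as deposited, where a difference of 1 is a doubling of the signal. Changes are passage 15 minus passage 5 with the standard error (SE) of a limma fit over all 15 arrays, and a gene was called when its p-value, adjusted over 19938 genes, was under 0.05. Arrays of the same group correlated at 0.997 to 0.998 across genes, and treated arrays of different passages at 0.971 to 0.973. In all, 9169 genes were called, 46% of those tested, of which 4910 (24.6%) were higher and 4259 (21.4%) were lower at passage 15. A change of 2-fold or more was seen in 1049 called genes (5.26%), 492 (2.47%) upward and 557 (2.79%) downward. The 3 arrays of one passage lay wholly beyond those of the other in 54.9% of genes, 30.5% higher and 24.5% lower at passage 15. The balance of directions depended on scaling: 53.6% of calls were higher as deposited, 41.7% with arrays centred on their medians (3536 higher, 4950 lower) and 47.4% after cyclic loess (4084 higher, 4534 lower). It also depended on level. Among genes at or above the median level 29.8% were called higher and 36% lower, while below it 19.4% were called higher and 6.71% lower, and array medians were 5.70 to 5.72 at passage 15 against 5.64 to 5.66 at passage 5. Xist, the RNA of the inactive X chromosome in female cells, stood at 10.29 to 10.39 at passage 15 and 10.69 to 10.74 at passage 5 in cells labelled male. The 3 Y-linked genes measured lay between 2.32 and 3.40 in these 6 arrays.

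The largest single change was in Pip, which encodes prolactin-induced protein, a secreted protein of exocrine glands (chr6:41847549-41852065 in GRCm38.p6). Pip stood at 10.69, 10.70 and 10.59 in the 3 arrays of treated small colonies at passage 15, against 2.89, 2.64 and 2.74 at passage 5, a fitted change of 7.90 (SE 0.0891, adjusted p = 1.91e-18). At passage 5 Pip was no brighter than the Y-linked genes, so the fitted value rests on a level near the floor of the arrays. Set against the brightest Y-linked value, Pip rose by at least 7.26 on the log2 scale. Untreated small colonies at passage 5 gave 2.65, 2.87 and 2.86, and untreated large colonies 2.64, 2.71 and 2.75 at passage 15 and 2.49, 2.68 and 2.83 at passage 5, so the signal was high in 3 of the 15 arrays, all of them treated passage 15 arrays. The other large rises that were not cell cycle genes were in Glipr1, Gsta4 and Igfbp2. Glipr1, a secreted or membrane protein of the CAP family, stood at 10.57, 10.53 and 10.60 at passage 15 against 6.31, 6.44 and 6.37 at passage 5. Gsta4, a glutathione transferase that clears the lipid peroxidation product hydroxynonenal, stood at 10.04, 10.09 and 10.03 at passage 15 against 6.27, 6.13 and 6.26 at passage 5. Igfbp2, a binding protein of insulin-like growth factors, stood at 9.39, 9.13 and 9.35 at passage 15 against 5.69, 5.37 and 5.72 at passage 5. The changes of these 3 genes were 4.20 (SE 0.07), 3.83 (SE 0.0813) and 3.70 (SE 0.102), the largest adjusted p being 3.07e-14. Passages that did not overlap were a condition for the 15 largest rises and falls, so that separation is no result. Since these genes were also ranked by their change, large changes and small p-values among them follow from the choice. The other 11 of the 15 largest rises were Ccna2, Bub1, Kif11, Top2a, Plk1, Pclaf, Prr11, Ect2, Knl1, Dtl and Nusap1, which are known as genes of the cell cycle. Glipr1 was not low in all early cultures: untreated large colonies had 11.68, 11.61 and 11.72 at passage 15 and 11.99, 12.00 and 11.95 at passage 5.

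The largest fall was in Tcf21, the fibroblast transcription factor of the epicardium (chr10:22817263-22820143). Tcf21 stood at 4.78, 4.92 and 5.09 at passage 15 against 9.44, 9.66 and 9.57 at passage 5, a change of -4.62 (SE 0.0886, adjusted p = 6.48e-16), and the untreated small colonies at passage 5 lay between, at 8.41, 8.38 and 8.35. Il6, the inflammatory cytokine interleukin 6 (chr5:30013114-30019975), stood at 4.43, 4.17 and 4.37 at passage 15 against 8.61, 8.66 and 8.71 at passage 5, a change of -4.34 (SE 0.0855). Both genes lay below the array medians in every passage 15 array and well above them in every passage 5 array. Sod3, the extracellular superoxide dismutase, stood at 5.70, 6.05 and 5.91 at passage 15 against 10.08, 10.10 and 10.08 at passage 5, a change of -4.20 (SE 0.0821). Cnn1, the actin-binding protein calponin of smooth muscle and myofibroblasts, stood at 5.89, 6.30 and 6.15 at passage 15 against 10.10, 10.12 and 10.01 at passage 5, a change of -3.96 (SE 0.0832). Itga8, the integrin α8 chain found on contractile mesenchymal cells, stood at 4.29, 4.50 and 4.28 at passage 15 against 8.55, 8.50 and 8.50 at passage 5, a change of -4.16 (SE 0.0709). In each of these genes the passages were separated by more than 3 log2 units, and the adjusted p was at most 1.11e-15. They were chosen for the size of their falls, so the wide gaps and small p-values are no separate result. The 15 largest falls also held Pamr1 (-4.35), the G protein subunit Gnai1 (-3.97), the LIM protein Lmcd1 (-3.81), the protease inhibitor Serpina3n (-3.61), Adam23 (-3.58), the lysozyme gene Lyz2 (-3.58), Cpxm1 (-3.55), the G protein regulator Rgs16 (-3.49), Fstl4 (-3.48) and Gstk1 (-3.45). Serpina3n and Lyz2 have close paralogues, so part of their signal may come from another gene.

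**Figure D1:**
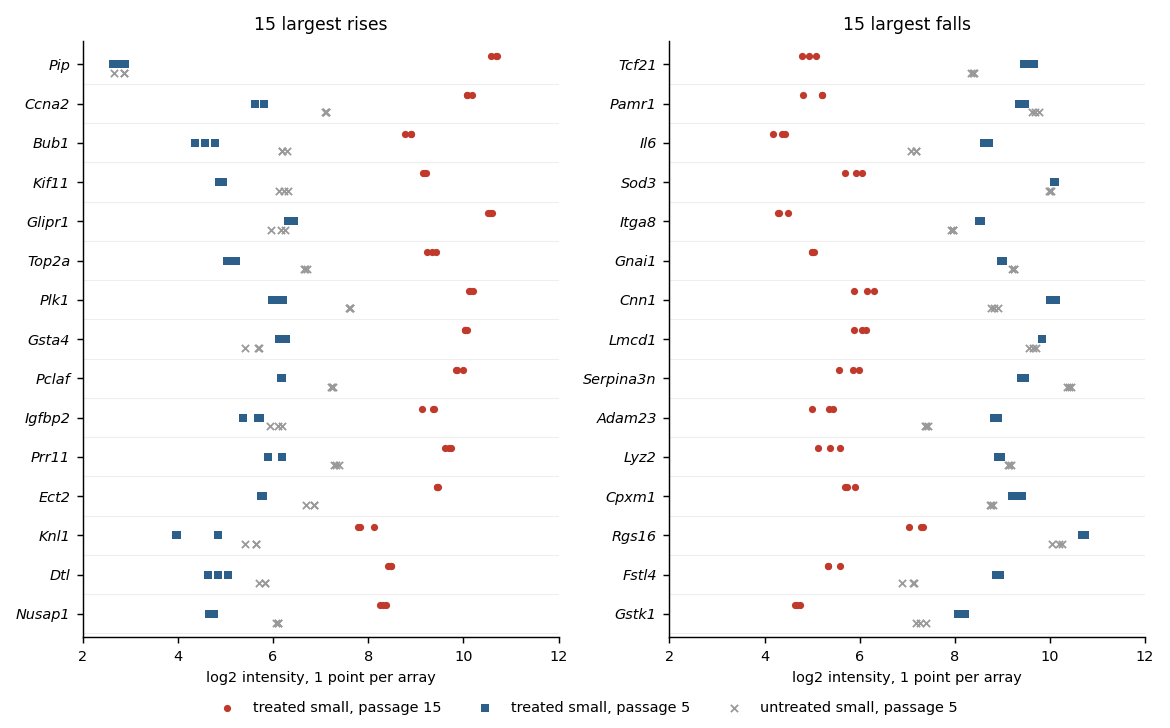
Log2 intensity in every array for the 15 genes with the largest rises (left) and the 15 with the largest falls (right). They were taken from called, named genes whose treated passages did not overlap. Red circles are treated small colonies at passage 15, blue squares treated small colonies at passage 5 and grey crosses untreated small colonies at passage 5. For Ccna2 the untreated colonies (7.10, 7.12 and 7.11) lie between the treated passages.

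Genes of cell division rose almost without exception. Of 89 measured genes of mitosis (kinases and checkpoint, kinetochore and centromere, spindle motors and cytokinesis) 87 were called higher at passage 15, 1 lower and 1 was not called, with a median change of 2.46 against 0.05 over all genes. By comparison, 24.6% of all genes tested were called higher and 21.4% lower. Ccna2, the cyclin of S phase and mitotic entry (chr3:36564865-36573038), stood at 10.08, 10.08 and 10.19 at passage 15 against 5.80, 5.80 and 5.61 at passage 5, a change of 4.38 (SE 0.069, adjusted p = 9.41e-17), and the plot of the largest changes shows the gap. The proliferation antigen Mki67 stood at 9.04, 8.77 and 9.09 at passage 15 against 5.68, 5.66 and 5.47 at passage 5. Plk1, the polo kinase of mitotic entry and spindle assembly, stood at 10.13, 10.13 and 10.19 at passage 15 against 6.06, 6.21 and 5.98 at passage 5. Both genes were high in every passage 15 array, with changes of 3.36 (SE 0.0892) and 4.07 (SE 0.0795). Aurkb, the kinase of the chromosomal passenger complex, rose by 3.45 and the mitotic cyclin Ccnb2 by 3.33. The exception that fell was Pttg1 (securin, which holds back separase until anaphase), by 0.16, and its call was lost after cyclic loess between arrays and without passage 15 replicate 1 or 2 or passage 5 replicate 1 or 3. Its call was lost after cyclic loess and without passage 15 replicate 1 or 2 or passage 5 replicate 1 or 3. The gene that was not called was Zwint, a kinetochore linker, at 10.32, 10.36 and 10.36 at passage 15 against 10.46, 10.41 and 10.50 at passage 5, which passed as a small fall under 3 alternatives. In bulk RNA of this kind a different share of dividing cells and a different amount of RNA per cell cannot be told apart.

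Promoters of these genes were read from RefSeq (GRCm38.p6, 250 bases before the start to 50 after it). They were read because many mitotic genes can be repressed by the DREAM complex through a cell cycle homology region (CHR). The CHR was taken here as TTTGAA or TTCGAA, or TTCAAA on the other strand. It often lies near CCAAT boxes bound by NF-Y. The promoters of 3 of the largest rises are shown with these letters in capitals: Bub1 (the spindle checkpoint kinase, chr2:127831810-127832109, minus strand), Kif11 (the motor that separates the spindle poles, chr19:37376132-37376431, plus strand) and Top2a (the topoisomerase that untangles sister chromatids, chr11:99024140-99024439, minus strand).
Bub1: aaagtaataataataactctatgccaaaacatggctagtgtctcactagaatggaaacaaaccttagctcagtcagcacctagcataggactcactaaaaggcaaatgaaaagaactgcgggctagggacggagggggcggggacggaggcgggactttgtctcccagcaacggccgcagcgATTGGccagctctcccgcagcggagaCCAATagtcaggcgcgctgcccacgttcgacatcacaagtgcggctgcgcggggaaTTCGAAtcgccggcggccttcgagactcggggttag
Kif11: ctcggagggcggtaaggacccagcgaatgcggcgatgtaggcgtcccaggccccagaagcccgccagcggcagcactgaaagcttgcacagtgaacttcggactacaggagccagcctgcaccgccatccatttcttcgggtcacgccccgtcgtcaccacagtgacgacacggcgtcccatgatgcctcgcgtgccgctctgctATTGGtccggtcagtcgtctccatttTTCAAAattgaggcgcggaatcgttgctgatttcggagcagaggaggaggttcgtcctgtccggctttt
Top2a: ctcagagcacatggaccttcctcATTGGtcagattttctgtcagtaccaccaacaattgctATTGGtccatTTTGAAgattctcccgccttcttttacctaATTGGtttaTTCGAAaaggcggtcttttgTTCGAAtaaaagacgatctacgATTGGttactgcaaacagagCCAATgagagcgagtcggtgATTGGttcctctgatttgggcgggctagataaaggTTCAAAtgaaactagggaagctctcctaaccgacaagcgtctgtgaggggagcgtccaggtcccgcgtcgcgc
The table held promoters for 74 of the 89 mitosis genes, 80 promoters in all. Of these 54 (67.5%) held a CHR element, against 3149 of 19115 promoters of all measured genes (16.5%). A CCAAT box (read as ATTGG on the other strand, and able to share a base with a CHR) was found in 72.5% against 37.4%, and both in 56.2% against 6.57%. The CHR lay within 50 bases of the start in 56.2% of the mitosis promoters and in 4.24% of all, a window chosen after the promoters had been read. The shares were lower for the replication genes described next (CHR in 20.7%, CCAAT in 56.9%) and for contractile genes (CHR in 11.8%, CCAAT in 41.2%). These matches are descriptions of the letters in the window and not of binding. Bub1 itself stood at 8.89, 8.78 and 8.89 at passage 15 against 4.57, 4.78 and 4.37 at passage 5, Kif11 at 9.15, 9.18 and 9.22 at passage 15 against 4.95, 4.87 and 4.92 at passage 5. Top2a stood at 9.24, 9.35 and 9.42 at passage 15 against 5.22, 5.19 and 5.02 at passage 5. In all 3 genes the passages were more than 3 log2 units apart, which follows from their choice among the largest rises.

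By role, the 32 genes of spindle motors and cytokinesis were all called higher, with a median of 2.72, from 0.68 for Smc4 to 4.27 for Kif11. Ect2, the exchange factor that places the cleavage furrow, rose by 3.68 (SE 0.0756), Kif23 of the central spindle by 3.56 and the microtubule bundler Prc1 by 3.24. Of 26 mitotic kinases and checkpoint genes 25 rose, with a median of 2.53. Of 31 kinetochore and centromere genes 30 rose, with a median of 1.85 and no fall (1 fall, in Zwint, with arrays centred on their medians). There the outer kinetochore gene Knl1 stood at 7.79, 8.13 and 7.83 at passage 15 against 4.83, 3.95 and 3.98 at passage 5. Knl1 varied more than most at passage 5, where 1 array lay above the others. Sgo2a, which protects centromeric cohesion, rose by 3.36, and the motor Cenpe by 2.99.

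DNA replication genes rose with them. Of 57 genes of origin licensing and the replication fork 56 were called higher and none lower, with a median of 1.55. The shares over all genes tested were 24.6% higher and 21.4% lower. The 6 subunits of the MCM helicase rose by 1.86 to 2.94, with a median of 2.70, whereas the 4 measured subunits of the origin recognition complex, all called higher, had a median of 0.63. Pclaf, the PCNA-binding factor, stood at 9.84, 9.99 and 9.86 at passage 15 against 6.18, 6.18 and 6.19 at passage 5. Chaf1b, a subunit of the chromatin assembly factor, stood at 9.02, 9.02 and 8.99 at passage 15 against 5.48, 5.49 and 5.32 at passage 5, a change of 3.58 (SE 0.0743). The histone chaperone Asf1b rose by 3.58, the polymerase subunit Pole by 3.36 and the primase Prim1 by 2.91. Rpa3, a subunit of the single-strand binding protein, was the 1 gene not called (7.23, 7.50 and 7.48 at passage 15 against 7.41, 7.15 and 7.24 at passage 5). Of 30 genes of recombination and the Fanconi pathway 28 rose and none fell, with a median of 1.31, among them Fancd2 (2.45), Exo1 (2.51) and Brip1 (2.09). Nbn and Fancm were not called.

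Histone genes moved both ways. Of 25 measured, 16 rose and 6 fell, with a median of 1.03, where 24.6% of all genes tested rose and 21.4% fell. H2bc3 rose by 3.11, H2ac15 by 2.98 and H1f1 by 2.60, while the linker histones H1f3 (-2.14) and H1f2 (-1.27) and the core histones H2bc4 (-1.23) and H3c4 (-1.21) fell. Histone copies are near-identical in sequence, so values of single members are uncertain. Of 30 regulators of G1 phase 18 rose and 5 fell (8 with arrays centred on their medians), and 22 of the 30 lay above the median level. Among genes at or above that level 29.8% were called higher and 36% lower. The cyclin Ccne2, which starts S phase with CDK2, stood at 7.23, 7.34 and 7.18 at passage 15 against 4.13, 4.11 and 4.09 at passage 5. The repressor E2f8 rose by 2.89, its partner E2f7 by 2.02, and Lin9, a subunit of the DREAM and MuvB complexes, by 1.96. The retinoblastoma pocket protein gene Rb1 (-1.07) and its relative Rbl2 (-0.50) fell, while the third pocket protein, Rbl1, rose by 1.82. The D cyclins Ccnd1 and Ccnd2, the cyclins through which growth factors act on CDK4 and CDK6, were high at both passages and were not called (Ccnd1 11.33, 11.42 and 11.36 at passage 15 against 11.53, 11.49 and 11.46 at passage 5). Both were called lower under some alternatives, at -0.18 for Ccnd1 and -0.15 for Ccnd2 with arrays centred on their medians.

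Genes that restrain division did not move together. Cdkn2b, which encodes the CDK4 and CDK6 inhibitor p15, stood at 8.09, 8.11 and 8.04 at passage 15 against 9.16, 8.99 and 9.04 at passage 5, a change of -0.98 (SE 0.0588, adjusted p = 5.69e-10). Cdkn2a, which encodes p16 and p19ARF (not told apart here), stood at 7.94, 7.98 and 7.93 at passage 15 against 8.23, 8.13 and 7.98 at passage 5 and was not called (adjusted p = 0.0974), although it passed as a fall without passage 5 replicate 3 (a change of -0.23, adjusted p = 0.0295), with array weights and with arrays centred on their medians. Cdkn2c, which encodes the related inhibitor p18, rose by 0.72. Tert, the catalytic subunit of telomerase, fell by 0.39 at a low level, with 4.95, 4.85 and 4.87 at passage 15 against 5.44, 5.28 and 5.10 at passage 5. Of 25 measured p53 targets 16 fell and 3 rose, with a median of -0.34, where 21.4% of all genes tested fell and 24.6% rose. Above the median level lay 24 of the 25, and of genes at or above it 36% were called lower and 29.8% higher. Btg2, an antiproliferative gene that is also an immediate early gene, stood at 7.59, 7.63 and 7.54 at passage 15 against 10.24, 10.38 and 10.31 at passage 5. Fas, the death receptor, stood at 5.53, 5.37 and 5.48 at passage 15 against 7.31, 7.43 and 7.43 at passage 5, a change of -1.93 (SE 0.078). The mTOR inhibitor Ddit4 (-1.47) and the death receptor Tnfrsf10b (-1.03) fell, while the largest rise was in the polo-like kinase Plk2 (0.48). Cdkn1a and Trp53 were not analysed here.

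Levels of the dividing-cell genes were also set beside the untreated small colonies at passage 5. The mean of the untreated small colonies lay above that of the treated colonies at passage 5 in 86 of the 89 mitosis genes, and between the treated passages in 84 of them. The median level of the 89 genes was 7.80 in treated colonies at passage 15 and 5.19 in treated colonies at passage 5, against 6.09 in untreated small colonies at passage 5. For the 57 replication genes the median levels were 7.79 in treated colonies at passage 15 and 6.23 in treated colonies at passage 5, against 6.72 in untreated small colonies at passage 5. The treated passage 5 arrays were thus the lowest of the small-colony arrays for most of these genes, as the grey crosses in the plot of the largest changes show.

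**Figure D2:**
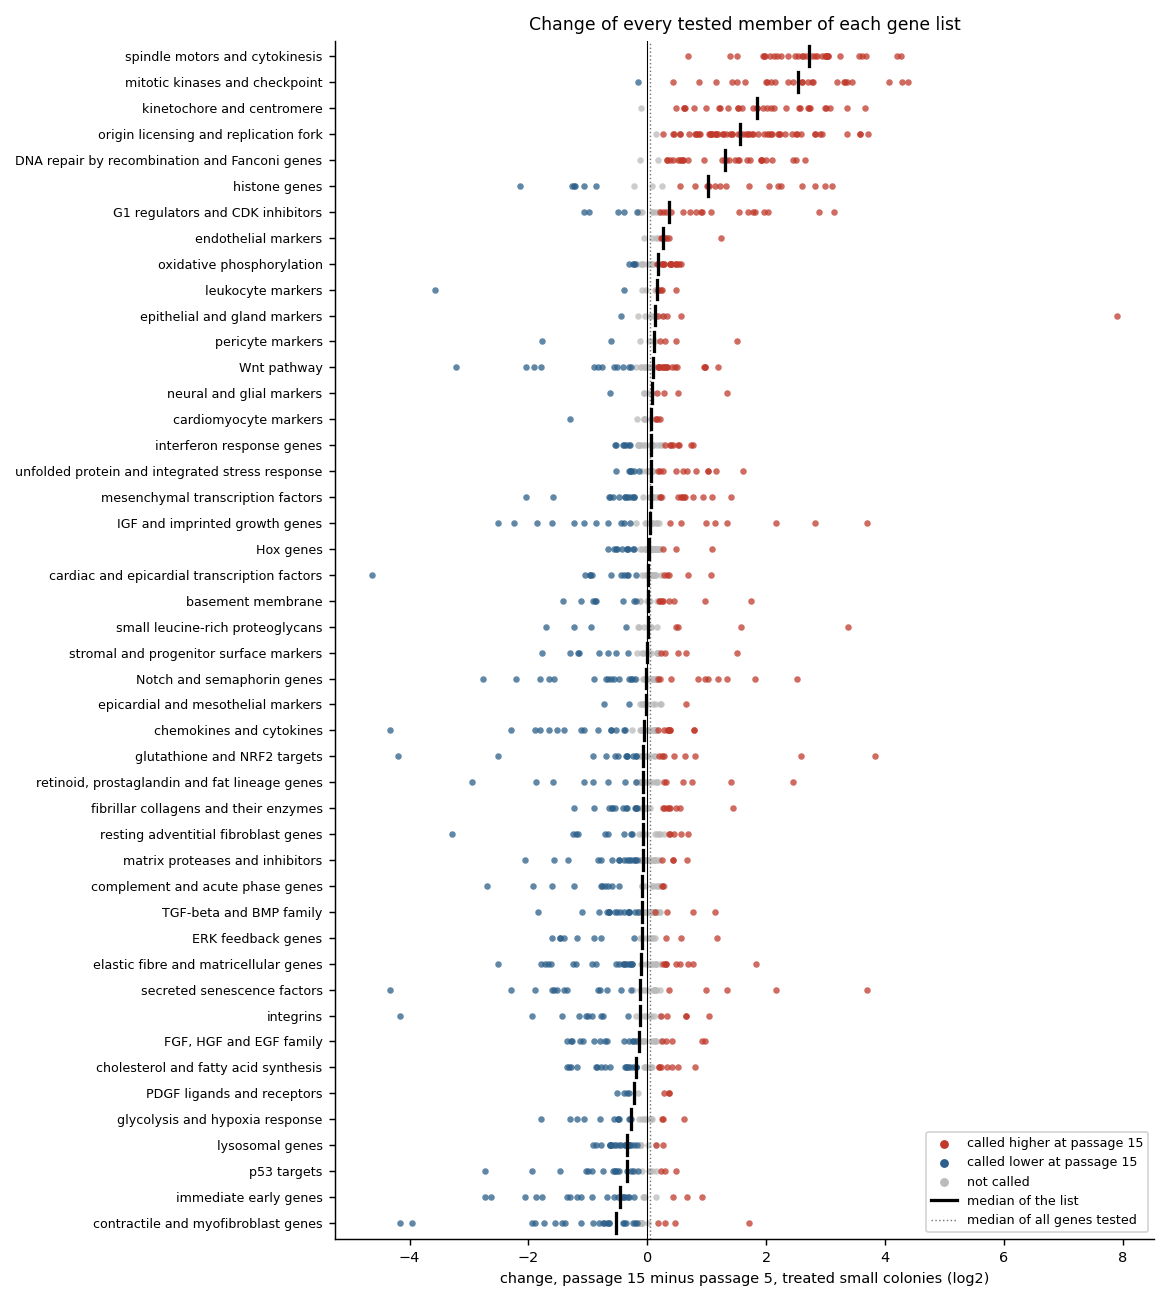
Change at passage 15 against passage 5 in treated small colonies (log2) of every tested member of 46 gene lists, ordered by list median. Red points were called higher at passage 15, blue points lower and grey points not called, black bars are list medians and the dotted line is the median of all genes (0.05). The mitosis lists stand at 1.85 to 2.72, and the contractile list is lowest at -0.53.

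The receptors and ligands of PDGF changed little, by at most 0.51. Pdgfra, the receptor on which the cells were sorted, stood at 6.63, 6.61 and 6.66 at passage 15 against 6.23, 6.39 and 6.20 at passage 5, a rise of 0.36 (SE 0.0836, adjusted p = 0.00204). Pdgfrb averaged 11.07 ± 0.071 at passage 15 against 11.58 ± 0.0407 at passage 5 (SD, n = 3 each), a change of -0.51 (SE 0.0571). Neither gene overlapped between passages. The ligand genes Pdgfa (-0.34) and Pdgfc (-0.40) and the co-receptor Nrp1 (-0.30) fell, and Pdgfb (0.37) and the receptor-like gene Pdgfrl (0.29) rose, both from low levels, and the call for Pdgfrl was lost after cyclic loess between arrays (0.21, adjusted p = 0.0678). Pdgfd was not called.

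Immediate early genes, the first transcripts induced after a growth factor binds, were mostly lower at passage 15. Of 26 measured 19 fell and 3 rose, with a median of -0.45, where 21.4% of all genes tested fell and 24.6% rose. All 26 lay above the median level, and of genes at or above it 36% were called lower and 29.8% higher. The mean of untreated small colonies at passage 5 lay above that of treated colonies at passage 5 in 5 of the 26 genes. Fos, a subunit of the AP-1 dimer, stood at 6.49, 6.18 and 6.25 at passage 15 against 8.99, 8.96 and 8.87 at passage 5, a change of -2.63 (SE 0.0875, adjusted p = 2.81e-13). Nr4a1, an orphan nuclear receptor, stood at 6.65, 6.53 and 6.63 at passage 15 against 8.72, 8.69 and 8.55 at passage 5. Zfp36, which destabilises cytokine mRNAs, stood at 7.95, 7.87 and 7.85 at passage 15 against 9.57, 9.69 and 9.74 at passage 5. The passages were far apart in each, with changes of -2.05 (SE 0.0654) and -1.78 (SE 0.0708). Falls were also called in Fosb (-1.88), Maff (-1.35), Junb (-1.11), Egr1 (-0.68), Jun (-0.50) and Srf (-0.38), the factor that drives many of these genes. Fosl1, the AP-1 partner that follows sustained ERK activity, rose by 0.92, with Nr4a2 (0.66) and Klf4 (0.44). The difference between the passage changes in treated small and untreated large colonies was called lower for 18 of the 26 genes and higher for 4, against 15.9% lower and 18.6% higher over all genes.

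Feedback genes of the ERK pathway moved in both directions. Of 19 measured 8 fell, 3 rose and 8 were not called, with a median of -0.10, where 21.4% of all genes tested fell and 24.6% rose. Above the median level lay 16 of the 19, and of genes at or above it 36% were called lower and 29.8% higher. Dusp1, a phosphatase of MAP kinases, stood at 9.82, 9.80 and 9.87 at passage 15 against 11.49, 11.46 and 11.37 at passage 5, a change of -1.61 (SE 0.0618). The receptor tyrosine kinase inhibitors Spry4 (-1.46), Spry1 (-1.40) and Spry2 (-0.90) and the ERK-induced factor Etv1 (-1.47) fell. Among other phosphatases of the family Dusp4 (0.57), Dusp5 (0.32) and Dusp10 (1.17) rose. The plot of all lists places this one close to the median of all genes, with a long tail of falls.

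**Figure D3:**
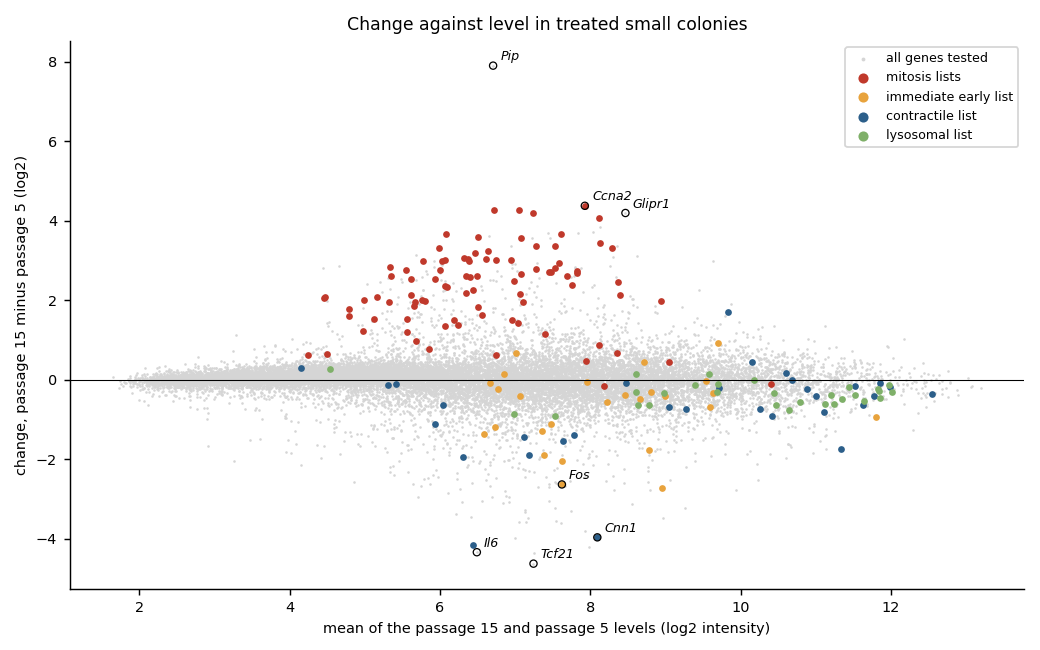
Change at passage 15 against passage 5 in treated small colonies (log2, vertical axis) against the mean of both levels (log2 intensity, horizontal axis) for 19938 genes in grey, with 4 sets of listed genes in colour and named genes circled. Mitosis genes (red) lie above 0 apart from Pttg1 and Zwint, with a median of 2.46, and contractile (blue, median -0.53), immediate early (orange, median -0.45) and lysosomal genes (green, median -0.34) lie mostly below it.

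Contractile and myofibroblast genes were mostly lower at passage 15. Of 32 measured 22 were called lower and 4 higher, with a median of -0.53, where 21.4% of all genes tested were called lower and 24.6% higher. Above the median level lay 28 of the 32, and of genes at or above it 36% were called lower and 29.8% higher. The mean of untreated small colonies at passage 5 lay above that of treated colonies at passage 5 in 7 of the 32 genes. The median level of the list was 9.75 in treated colonies at passage 15, 9.87 in treated colonies at passage 5 and 9.61 in untreated small colonies at passage 5. Beside Cnn1 and Itga8, the regulatory light chain Myl9 stood at 10.60, 10.33 and 10.48 at passage 15 against 12.23, 12.22 and 12.19 at passage 5, a change of -1.75 (SE 0.0684). Mylk, the kinase that activates it, stood at 6.14, 6.31 and 6.26 at passage 15 against 8.19, 8.19 and 7.98 at passage 5, a change of -1.88 (SE 0.0879). Acta2, the smooth muscle actin that defines myofibroblasts, remained a bright signal, at 12.37, 12.36 and 12.35 at passage 15 against 12.73, 12.75 and 12.70 at passage 5, a change of -0.37 (SE 0.0464). In untreated small colonies at passage 5 Acta2 stood at 12.32, 12.31 and 12.32, and Myl9 at 10.71, 10.57 and 10.70. Mylk stood there at 8.33, 8.42 and 8.06. Other falls were in leiomodin Lmod1 (-1.43), enteric actin Actg2 (-1.39), vinculin Vcl (-0.92), caldesmon Cald1 (-0.81) and the serum response factor coactivator Mrtfa (-0.73). Tagln, another smooth muscle marker, was not called (10.65, 10.82 and 10.58 at passage 15 against 10.68, 10.69 and 10.68 at passage 5), and its relative Tagln2 rose by 1.71. The difference from the large colonies was called lower in 23 of the 32 genes and higher in 3.

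Among 22 integrin genes 10 fell and 5 rose (3 rose without passage 15 replicate 2 or passage 5 replicate 1), where 21.4% of all genes tested fell and 24.6% rose. The collagen receptor chains Itga1 (-1.94, SE 0.107), Itga11 (-1.44) and Itga10 (-1.04) and the VCAM1 and fibronectin receptor chain Itga4 (-1.15) fell, together with the shared Itgb1 chain (-0.74). Itga11 stood at 8.87, 8.89 and 8.98 at passage 15 against 10.40, 10.34 and 10.30 at passage 5. The fibronectin and vitronectin receptor chains Itga5 and Itgav were not called, at 10.14, 10.09 and 10.20 at passage 15 against 10.13, 10.13 and 10.01 at passage 5 for Itga5. Itgb8, a chain of a receptor that activates latent TGF-β, rose by 1.03 from a low level.

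Matrix genes moved in both directions. Of 29 fibrillar collagen genes and their enzymes 8 rose and 13 fell, where 24.6% of all genes tested rose and 21.4% fell. Above the median level lay 28 of the 29, and of genes at or above it 29.8% were called higher and 36% lower. The rises included the structural chains Col6a3 (1.45), Col1a1 (0.55), Col5a3 (0.48), Col6a2 (0.38) and Col1a2 (0.36). The falls included the chain Col12a1 (-0.90) and the processing and modifying enzymes P3h3 (-1.23), Bmp1 (-0.64), Loxl1 (-0.60) and Plod2 (-0.59). Col1a1, the main chain of type I collagen, stood at 12.23, 12.41 and 12.26 at passage 15 against 11.77, 11.77 and 11.69 at passage 5, with untreated small colonies at passage 5 at 12.16, 12.24 and 12.08. Col6a3 stood at 10.68, 10.70 and 10.72 at passage 15 against 9.31, 9.22 and 9.23 at passage 5. Among 22 basement membrane genes 8 rose and 8 fell, with 4 rising under either other scaling (median centring or cyclic loess) and 4 or 5 without passage 15 replicate 2 or 3 or passage 5 replicate 1 or 2. Lama2, the laminin chain of muscle basement membranes, stood at 8.55, 8.53 and 8.58 at passage 15 against 6.89, 6.80 and 6.75 at passage 5, a change of 1.74 (SE 0.0832). Lama5 (-1.43), Lama4 (-1.12), Nid2 (-0.91) and the type IV collagen chains Col4a1 (-0.87) and Col4a2 (-0.88) fell. Of 14 small leucine-rich proteoglycans 4 rose and 4 fell. Fmod (fibromodulin, which binds collagen fibrils) stood at 9.99, 10.00 and 10.12 at passage 15 against 6.67, 6.65 and 6.69 at passage 5, a change of 3.37 (SE 0.0951). Ogn stood at 9.04, 8.73 and 9.09 at passage 15 against 7.39, 7.37 and 7.41 at passage 5, and both passages lay below the untreated small colonies at passage 5 (10.61, 10.61 and 10.57). Lum (-1.70) and Prelp (-1.23) fell, while Dcn was not called.

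Of 39 elastic fibre and matricellular genes 19 fell and 9 rose, where 21.4% of all genes tested fell and 24.6% rose. Above the median level lay 28 of the 39, and of genes at or above it 36% were called lower and 29.8% higher. Tnc (tenascin C, an adhesion-modulating protein of wounds) stood at 9.08, 8.90 and 8.94 at passage 15 against 11.51, 11.48 and 11.49 at passage 5, a change of -2.52 (SE 0.0634). All 5 measured CCN family genes fell, Ccn4 (-1.78), Ccn3 (-1.68), Ccn5 (-1.62), Ccn2 (-1.25, connective tissue growth factor) and Ccn1 (-0.92). The large proteoglycan Vcan stood at 10.16, 10.04 and 10.21 at passage 15 against 8.39, 8.25 and 8.26 at passage 5, a rise of 1.84 (SE 0.0892). Fn1 fell by 0.26, and Sparc was not called. Of 38 matrix proteases and inhibitors 15 fell and 4 rose, and 29 of the 38 lay above the median level. Mmp23 (-2.05), stromelysin Mmp3 (-1.57), the aggrecanase Adamts4 (-1.33) and the membrane collagenase Mmp14 (-0.78) fell, and gelatinase Mmp2 rose by 0.66. Mmp3 stood at 4.03, 4.35 and 4.54 at passage 15 against 5.91, 5.87 and 5.86 at passage 5, both far below the untreated small colonies at passage 5 (9.07, 9.31 and 9.30).

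Transcription factors of the heart and epicardium were not moved as a group. Of 31 measured 11 fell, 5 rose and 15 were not called, and the list median was 0.02 (-0.05 with arrays centred on their medians). Tcf21 stood apart from the rest, the next falls being in Mef2c (-1.05), Foxc1 (-0.97), Mef2d (-0.97) and Tbx20 (-0.93). Tbx20, a cardiac T-box factor, stood at 7.29, 7.13 and 7.26 at passage 15 against 8.14, 8.16 and 8.18 at passage 5. Nr2f2 (COUP-TFII) rose by 1.07, Gata6 by 0.68 and Tbx3 by 0.37. Hand2, Gata4, Wt1 and Isl1 did not pass the test. Of 36 mesenchymal transcription factors 11 rose and 13 fell, where 24.6% of all genes tested rose and 21.4% fell. Ebf2, an early B-cell factor of mesenchymal and fat progenitors, stood at 5.38, 5.34 and 5.54 at passage 15 against 7.56, 7.45 and 7.37 at passage 5, a change of -2.04 (SE 0.085). Its paralogue Ebf1 went the other way, at 8.28, 8.18 and 8.33 at passage 15 against 7.23, 7.16 and 7.16 at passage 5, a rise of 1.08 (SE 0.0619). The fat regulator Pparg fell by 1.59 and the cartilage regulator Sox9 rose by 1.41. Zeb1 (-0.63) and Zeb2 (-0.48) fell and Snai2 (0.57) rose among the mesenchymal repressors. Of 37 Hox genes 10 fell and 3 rose, so that 35.1% were called, against 46% of all genes tested. Only 14 of the 37 lay above the median level, and dimmer genes were called less often. Below that level 19.4% of genes were called higher and 6.71% lower, against 29.8% and 36% at or above it. The falls were all in paralogue groups 2 to 7 of the Hoxa and Hoxb clusters, led by Hoxb3 (-0.66) and Hoxa3 (-0.56). The largest rises were in Hoxb9 (1.09) and Hoxd8 (0.48).

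Surface markers of stromal progenitors also moved both ways. Of 24 measured 8 fell and 5 rose, where 21.4% of all genes tested were called lower and 24.6% higher, and the list is not set apart by these counts. Mcam (CD146, of pericytes and endothelium) stood at 7.43, 7.52 and 7.39 at passage 15 against 9.29, 9.23 and 9.16 at passage 5, a change of -1.78 (SE 0.0614). Cspg4 (NG2, a proteoglycan of pericytes that binds PDGF) stood at 9.11, 8.84 and 9.13 at passage 15 against 7.53, 7.48 and 7.56 at passage 5, a rise of 1.51 (SE 0.104). Podoplanin Pdpn (-1.31), nestin Nes (-1.17), Alcam (-1.14) and endoglin Eng (-0.81) fell, and Thy1 rose by 0.30. Cd34, Vcam1 and Cd44 were not called, with Cd34 low at both passages (4.58, 4.76 and 4.60 at passage 15 against 4.80, 4.72 and 4.65 at passage 5). Ly6a, which encodes SCA1, was not analysed here. Of 23 genes of resting adventitial fibroblasts 9 fell and 5 rose. Dpep1, a membrane dipeptidase, stood at 5.44, 5.33 and 5.71 at passage 15 against 8.79, 8.77 and 8.77 at passage 5, a change of -3.28 (SE 0.0781).

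Growth factor genes of the insulin-like and imprinted families held some of the largest changes outside the cell cycle. Of 29 measured 8 rose and 11 fell, where 24.6% of all genes tested rose and 21.4% fell. Igf2, the imprinted fetal growth factor, stood at 5.33, 5.53 and 5.59 at passage 15 against 7.81, 7.70 and 7.67 at passage 5, a change of -2.24 (SE 0.0778), and the untreated small colonies at passage 5 were at 5.61, 5.50 and 5.65, near the passage 15 values. Dlk1, an imprinted Notch-like inhibitor of fat differentiation, stood at 9.22, 9.40 and 9.26 at passage 15 against 6.56, 6.38 and 6.49 at passage 5, a rise of 2.81 (SE 0.103). Meg3, the maternally expressed RNA of the same imprinted cluster, stood at 9.63, 9.34 and 9.43 at passage 15 against 11.27, 11.37 and 11.32 at passage 5, a change of -1.86 (SE 0.0842). Dlk1 and Meg3 thus moved in opposite directions, and the passages did not overlap in either. Peg3, a paternally expressed zinc finger gene, fell by 2.51. Among the IGF binding proteins Igfbp2, Igfbp3 (2.17), Igfbp4 (1.33) and Igfbp6 (0.99) rose, while Igfbp5 (-1.61) and Igfbp7 (-0.44) fell. Igf1 itself fell by 1.24.

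Of 32 genes of the FGF, HGF, EGF and VEGF families 14 fell and 5 rose. Over all genes tested 21.4% fell and 24.6% rose, which are the shares to set beside each list described here. For lists of mostly bright genes the nearer shares are those at or above the median level, 36% lower and 29.8% higher. Vegfd stood at 10.53, 10.75 and 10.55 at passage 15 against 11.85, 11.90 and 11.92 at passage 5, a change of -1.28 (SE 0.0605). Fgf2 (-1.13), Hgf (-1.36) and the receptor Egfr (-1.09) fell, and the HGF receptor Met (0.92) and Angpt2 (0.97) rose. Of 42 TGF-β and BMP family genes 17 fell and 4 rose, and 32 of the 42 lay above the median level. Follistatin Fst, which traps activins, stood at 8.45, 8.39 and 8.56 at passage 15 against 10.26, 10.28 and 10.38 at passage 5, and the BMP target Id1 fell by 1.09 while Id2 rose by 0.77. Grem1, a secreted BMP antagonist, was bright at both passages, with 12.12, 12.12 and 12.16 at passage 15 against 12.82, 12.79 and 12.81 at passage 5. Of 44 Wnt pathway genes 16 rose and 12 fell (10 rose with arrays centred on their medians). Nkd2, a feedback inhibitor of Wnt signalling, stood at 5.99, 5.96 and 5.84 at passage 15 against 9.17, 9.15 and 9.12 at passage 5, a change of -3.22 (SE 0.0552). The secreted antagonists Sfrp1 (-1.91) and Sfrp2 (-2.05) fell, the nuclear effector Lef1 rose by 1.18, and the target Axin2 was not called.

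Of 38 Notch, Eph, Slit and semaphorin genes 10 rose and 15 fell, where 24.6% of all genes tested rose and 21.4% fell. Slit3, a guidance ligand, stood at 7.52, 7.31 and 7.40 at passage 15 against 10.20, 10.16 and 10.15 at passage 5, a change of -2.76 (SE 0.0708), and its receptors Robo2 (-1.81) and Robo1 (-0.66) fell too. Slit2 rose by 1.02. The class 3 semaphorins divided: Sema3e stood at 8.00, 7.87 and 8.02 at passage 15 against 5.47, 5.38 and 5.49 at passage 5, a rise of 2.51 (SE 0.0712), and Sema3a rose by 1.34, whereas Sema3d (-1.66) and Sema3b (-1.56) fell. Notch3 fell by 0.61, and Notch1 and Notch2 were not called.

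Cytokine genes were mostly lower or at low levels. Of 40 chemokines and cytokines 15 fell and 9 rose, where 21.4% of all genes tested fell and 24.6% rose. Ccl2, the monocyte chemokine, stood at 7.61, 7.21 and 7.42 at passage 15 against 9.31, 9.29 and 9.32 at passage 5, a change of -1.89 (SE 0.104). Ccl7 fell by 2.30 (7.71, 7.43 and 7.69 at passage 15 against 9.95, 9.93 and 9.86 at passage 5), and falls were called in the IL6 family cytokine Lif (-1.66), prostaglandin E synthase Ptges (-1.81) and osteoprotegerin Tnfrsf11b (-1.52). Tnfaip3 (0.78) and Nfkbia (0.37), which restrain NF-κB, rose. Of 29 factors secreted by senescent cells, a list that shares Il6 and several chemokines with the one above, 13 fell and 5 rose, and 4 of the 5 rises were the IGF binding proteins Igfbp2, Igfbp3, Igfbp4 and Igfbp6. Of 21 complement and acute phase genes 10 fell and 2 rose (1 without passage 15 replicate 2 or passage 5 replicate 3). Cp (ceruloplasmin) stood at 5.97, 5.94 and 5.94 at passage 15 against 8.64, 8.66 and 8.65 at passage 5, a change of -2.70 (SE 0.0549), and the complement genes C4b (-1.93) and C1s1 (-1.60) fell. Interferon response genes moved little, by at most 0.77, with 8 of 31 higher and 7 lower, near the shares of all genes tested (24.6% and 21.4%). Usp18 (6.35, 6.40 and 6.38 at passage 15 against 5.86, 5.36 and 5.61 at passage 5) and Oasl2 lay below the untreated small colonies at passage 5 at both passages (8.57, 8.27 and 8.17 for Usp18).

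Sterol, glycolytic and lysosomal genes were called lower more often than higher. Most of them were bright, with 30 of 31, 19 of 22 and 28 of 29 above the median level. Of all genes at or above that level 36% were called lower and 29.8% higher. Of 31 cholesterol and fatty acid synthesis genes 18 fell and 7 rose. Msmo1 (7.92, 7.77 and 7.90 at passage 15 against 9.26, 9.13 and 9.25 at passage 5), Idi1 (-1.32) and Insig1 (-1.28) of the sterol branch fell, while the fatty acid genes Acaca (0.80), Elovl6 (0.51), Scd2 (0.41) and Scd1 (0.23) rose. Of 22 glycolysis and hypoxia response genes 12 fell and 3 rose. The largest rise was 0.62 in Ndrg1, at 8.98, 8.85 and 8.94 at passage 15 against 8.35, 8.30 and 8.26 at passage 5. Adm, the vasodilator adrenomedullin and a HIF target, stood at 8.15, 8.29 and 8.23 at passage 15 against 10.04, 10.05 and 9.97 at passage 5, a change of -1.79 (SE 0.0567), and Bnip3 (-1.30), Pdk1 (-1.06) and the glucose transporter Slc2a1 (-0.81) fell. Of 31 oxidative phosphorylation genes 16 rose and 4 fell (2 fell without passage 5 replicate 1), led by the mitochondrial transcription factor Tfam (0.57) and the complex I subunit Ndufa9 (0.53). Of 29 lysosomal genes 22 fell and 2 rose (1 without any 1 of 4 arrays, passage 15 replicate 2 or 3 or passage 5 replicate 2 or 3), with a median of -0.34. The lysosomal falls were all smaller than 2-fold, the largest being -0.91 in the sialidase Neu1, which stood at 7.06, 7.15 and 7.01 at passage 15 against 8.09, 7.96 and 7.90 at passage 5.

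Genes of the stress response and of glutathione metabolism were called in both directions. Of 26 genes of the unfolded protein and integrated stress response 11 rose and 7 fell, and the 6 largest rises were Psat1 (1.61), Shmt2 (1.16), Trib3 (1.02), Cth (1.01), Asns (0.81) and Phgdh (0.67), of which Psat1, Shmt2 and Phgdh make serine and glycine. Psat1 stood at 10.63, 10.63 and 10.52 at passage 15 against 8.99, 8.96 and 8.99 at passage 5. The endoplasmic reticulum chaperones Calr and Hsp90b1 were not called. Of 30 glutathione and NRF2 target genes 8 rose and 12 fell, where 24.6% of all genes tested rose and 21.4% fell. Above the median level lay 28 of the 30, and of genes at or above it 29.8% were called higher and 36% lower. Slc7a11, the cystine importer that feeds glutathione synthesis, stood at 8.98, 9.10 and 9.03 at passage 15 against 6.56, 6.42 and 6.36 at passage 5, a rise of 2.59 (SE 0.0822). Mgst1, a microsomal glutathione transferase, stood at 4.71, 4.71 and 4.19 at passage 15 against 7.02, 7.02 and 7.09 at passage 5, a change of -2.50 (SE 0.112). Gsta4 rose and Sod3 fell, as given above, and the synthesis enzymes Gclc (-0.35) and Gclm (-0.34) fell. In the list of retinoid, prostaglandin and fat lineage genes 8 of 28 fell and 6 rose. The prostaglandin E receptor Ptger4 stood at 5.36, 5.48 and 5.49 at passage 15 against 8.41, 8.44 and 8.34 at passage 5, and the retinaldehyde dehydrogenase Aldh1a1 fell by 1.87. Fabp5, a fatty acid and retinoic acid carrier, stood at 8.42, 8.47 and 8.43 at passage 15 against 6.02, 5.90 and 6.05 at passage 5.

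Markers of other cell types were mostly at low levels in both passages. Of 82 such genes 28 were called higher, 9 lower and 45 were not called. Over all genes tested 24.6% were called higher and 21.4% lower, and among genes below the median level 19.4% and 6.71%. The number higher was 15 with arrays centred on their medians, 15 after cyclic loess between arrays and 18 without passage 5 replicate 2. The median level was 5.23 at passage 15 and 5.00 at passage 5, below the array medians. For endothelium 6 of 12 were higher and none lower, led by Flt1 (1.24). Under either of these scalings, or without passage 15 replicate 2 or passage 5 replicate 1, 4 were higher, with Cdh5 and Tek not called. Flt1 at passage 15 (7.99, 7.89 and 8.03) was near the untreated small colonies at passage 5 (8.21, 8.26 and 7.98). Pecam1, which encodes the CD31 used to exclude endothelium, was not called at 4.66, 4.49 and 4.63 at passage 15 against 4.40, 4.46 and 4.50 at passage 5. For leukocytes 5 of 12 were higher (1 under either scaling, 1 without passage 15 replicate 1 or passage 5 replicate 2, and 3 without any 1 of passage 15 replicates 2 and 3 and passage 5 replicate 1) and 2 lower. Lyz2 fell by 3.58, while the defining gene Ptprc, which encodes CD45, was low at both passages (4.18, 4.08 and 4.11 at passage 15 against 3.92, 3.85 and 3.87 at passage 5), and its call as higher was lost with arrays centred on their medians (0.18, adjusted p = 0.0833), after cyclic loess (0.18, adjusted p = 0.0742) and without passage 15 replicate 1 or passage 5 replicate 2. For cardiomyocytes Tnnt2 fell by 1.30 (9.07, 9.10 and 9.07 at passage 15 against 10.44, 10.37 and 10.34 at passage 5), and 3 of the other 11 (Myh7, Ryr2 and Ttn) were called slightly higher, 0 of them under either scaling or without passage 5 replicate 2. For epithelium and glands 5 of 14 were higher, 3 after cyclic loess and without passage 15 replicate 1 or passage 5 replicate 2 or 3, and Pip was the 1 gene that rose by more than 0.56 (Cdh1). Epcam and the gland markers Ltf, Elf5 and Scgb3a1 were not called. Epicardial and mesothelial markers (1 of 12 higher, 2 without passage 15 replicate 3 or passage 5 replicate 1 or 3, and 2 lower), pericyte markers (4 of 10 higher, 2 lower) and neural markers (4 of 10 higher, 2 with arrays centred on their medians or without passage 5 replicate 2, and 1 lower) were called in both directions. Ncam1, a neural cell adhesion molecule also made by other cells, was bright at 11.13, 11.08 and 11.14 at passage 15 against 9.78, 9.77 and 9.78 at passage 5, a rise of 1.34 (SE 0.0489). Whether RNA from other cells contributed to any change was not tested.

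The passage change of the treated small colonies was set against that of the untreated large colonies, which share no arrays with them. Colony size and PDGF-AB differ together between these cells and cannot be told apart. In large colonies 7196 genes (36.1%) were called with passage, and 1962 genes were higher and 2001 lower in both kinds of colony, with 415 higher in the treated small and lower in the large colonies and 522 the reverse. The difference of the changes itself was called for 6865 genes (34.4%), 3699 higher and 3166 lower in the small colonies, against 2387 higher and 3727 lower with arrays centred on their medians and 2702 higher and 3515 lower after cyclic loess. The mitosis lists rose in both: the medians were 2.53, 1.85 and 2.72 in treated small colonies for kinases, kinetochore and spindle genes, and 2.18, 1.75 and 2.29 in untreated large colonies. The difference was called higher in 13 of 26 kinase, 11 of 31 kinetochore and 18 of 32 spindle genes, and lower in 1, 7 and 1 of them. For Ccna2 the difference was 0.15 (SE 0.0977, adjusted p = 0.242), and for Mki67 it was 0.59 (SE 0.126, adjusted p = 0.00172).

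Genes outside the cell cycle gave the largest differences. Pgm5, a phosphoglucomutase-like protein of muscle cell adhesions, stood at 4.80, 5.18 and 5.12 in treated small colonies at passage 15 and 8.11, 8.07 and 8.06 at passage 5, against 9.08, 9.10 and 9.04 in untreated large colonies at passage 15 and 4.99, 4.99 and 5.05 at passage 5. It fell in one and rose in the other, and the difference of -7.11 (SE 0.107, adjusted p = 1.86e-16) was the most negative. Cnn1 fell by 3.96 in small colonies and rose by 0.77 in large ones (difference -4.73), Dpep1 fell by 3.28 and rose by 1.42 (difference -4.70), and Mmp3 fell by 1.57 and rose by 3.12 (difference -4.69). Npy4r, a receptor of pancreatic polypeptide, fell by 1.41 in small colonies and rose by 2.94 in large ones (difference -4.35). Tcf21, with a change of -0.06 in large colonies, stood there at 4.58, 4.53 and 4.83 at passage 15 and 4.79, 4.65 and 4.68 at passage 5 (difference -4.57). On the other side were Pip (7.87 as fitted, with the other 12 arrays near the floor), Glipr1 (4.50), the secreted carbonic anhydrase Car6 (3.82), the fibulin Efemp1 (3.80), cysteine dioxygenase Cdo1 (3.63) and Slc7a11 (3.54). For Efemp1 and Cdo1 the difference came from falls in large colonies (-3.54 and -4.17), set against 0.26 and -0.54 in small ones. Car6 also fell in large colonies, from 6.85, 6.84 and 6.54 at passage 5 to 4.24, 4.29 and 4.42 at passage 15. In treated small colonies Car6 rose, from 5.48, 5.50 and 5.43 at passage 5 to 7.09, 6.64 and 6.85 at passage 15. Pdgfra rose by 2.26 in large colonies, standing there at 8.76, 9.02 and 8.76 at passage 15 and 6.62, 6.45 and 6.67 at passage 5, and its difference was -1.91 (SE 0.118, adjusted p = 2.7e-09).

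**Figure D4:**
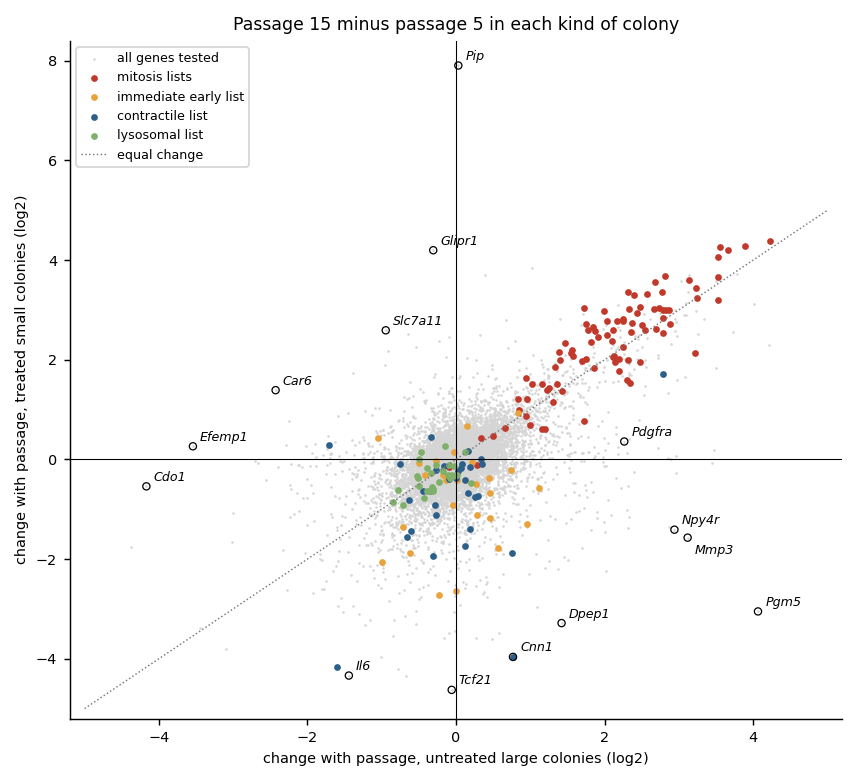
Change at passage 15 against passage 5 in treated small colonies (vertical axis, log2) against that in untreated large colonies (horizontal axis, log2) for 19938 genes in grey, with 4 sets of listed genes in colour and named genes circled. Mitosis genes (red) rise on both axes near the dotted line of equal change. Pip stands at 7.90 on the vertical and 0.03 on the horizontal axis, and Pgm5 at -3.05 and 4.06.

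The median change of genes differed slightly between chromosomes. Among the 9955 brighter genes with a chromosome, those not below the median level, the median change of genes on chromosome 16 was 0.17 above that of all these genes, and 47.3% of its 317 genes were called higher against 29.8% of all these genes. The 3 arrays at passage 15 lay at 0.15, 0.16 and 0.16 on this scale and the passage 5 arrays within 0.0029 of 0, while untreated small colonies at passage 5 lay at 0.18 to 0.20. The shift in large colonies was -0.07. Genes of chromosome 16 went both ways, and 26.8% of them were called lower against 36% of all these genes. Chromosome 14 stood 0.14 below, with 50.6% of its 332 genes called lower against 36% of all these genes, and untreated small colonies at passage 5 at 0.03 to 0.05. Its share called higher was 20.8%, against 29.8% of all these genes. Chromosome 19 stood 0.12 above and chromosome 1 0.08 above. No other chromosome median moved by more than 0.0718 in either direction. Untreated small colonies at passage 5 stood apart from the treated passages on chromosome 4 (-0.20 to -0.18), chromosome 7 (-0.19 to -0.17) and chromosome 15 (0.13 to 0.14).

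**Figure D5:**
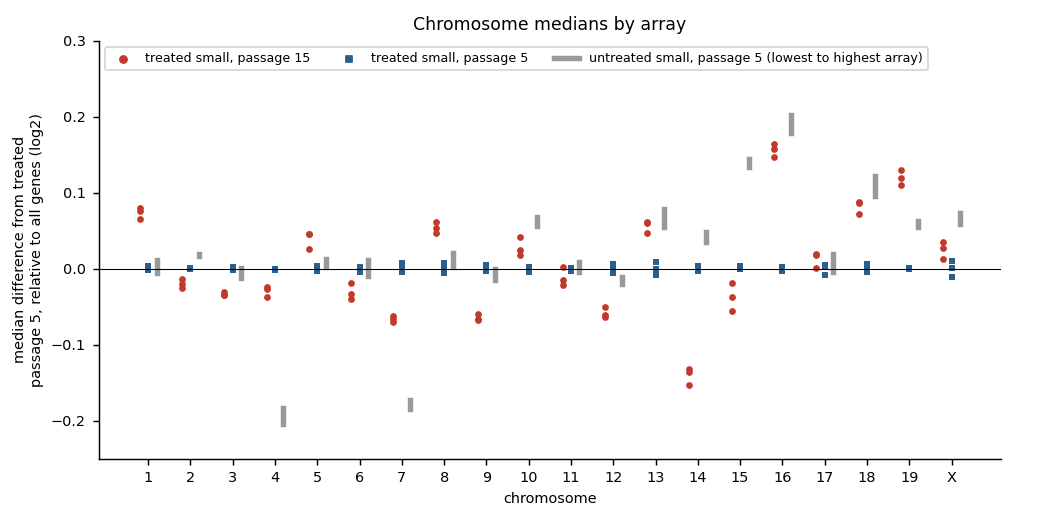
Median difference from the mean of treated small colonies at passage 5, relative to all 9955 genes used (log2), by chromosome and array. Red circles are treated small colonies at passage 15, blue squares treated small colonies at passage 5 and grey bars the range of untreated small colonies at passage 5. Chromosomes 16 and 19 stand above 0 and chromosome 14 below it in all 3 passage 15 arrays.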

How the data were processed

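Total RNA of 15 samples in 5 groups of 3 had been hybridised to Affymetrix mouse gene arrays. The authors deposited log2 intensities per probe set, and RMA and limma are named in the submitters' processing notes, without versions. Background settings were not given in the sources used here. Values were used as deposited. Of 28853 probe sets, 21789 named 1 gene in GEO's platform annotation, 1621 named several and 5443 were not listed. Symbols were updated by gene ID to RefSeq GRCm38.p6 (21698 matched), and the probe set with the highest mean stood for each of 19938 genes. The number of arrays limits the precision, and the median SE was 0.0778.

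Linear models in limma 3.58.1 under R 4.3.3 gave the changes (lmFit and eBayes, all 15 arrays, Benjamini-Hochberg adjustment over all genes), which was tested on simulated data first. The members and the 46 gene lists were chosen with earlier results of these data known. The lists held 1269 gene names, a few of them synonyms of another listed gene. With synonyms merged 1179 genes were tested, 30 lay only on probe sets shared by several genes and 55 were not matched. The genes described were taken from the 15 largest rises and falls, up to 6 called and 3 uncalled members of each list, the 6 largest differences each way and a set of fixed genes, in all 402 genes, not each of which is described. Only called genes whose treated passages did not overlap could enter the 15 largest rises and falls. A further 60 list members were named after their values were seen. Replicate numbers were not taken to pair the arrays, since the treated arrays of one number did not deviate together.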

Additional observations from a re-analysis of the deposited data

Results flagged for a closer look

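The difference between the passage changes of treated small and untreated large colonies, tested in limma over all genes, was called for 21 of the 23 genes chosen for it, and colony size and PDGF-AB cannot be told apart in any of them. The change was higher in treated small colonies for Pip (7.87 as fitted, with every other array near the floor), Glipr1 (4.50), Car6 (3.82), Efemp1 (3.80), Cdo1 (3.63), Slc7a11 (3.54), Mki67 (0.59) and Pecam1 (0.30). It was lower in treated small colonies for Pgm5 (-7.11), Cnn1 (-4.73), Dpep1 (-4.70), Mmp3 (-4.69), Tcf21 (-4.57), Npy4r (-4.35), Il6 (-2.89), Pdgfra (-1.91), Col1a1 (-0.87), Acta2 (-0.37), Tert (-0.31), Pdgfrb (-0.25) and Cdkn2b (-0.23). The calls for Pecam1, Tert, Cdkn2b and Pdgfrb were lost under some alternatives that left out an array of either kind of colony, at adjusted p-values of 0.0501 to 0.125. With all arrays kept, Pecam1 lost its call after cyclic loess (0.15, adjusted p = 0.243), after centring on array medians (0.23, adjusted p = 0.0992) and with trend and robust moderation (adjusted p = 0.0586). Tert lost it with only the arrays compared (adjusted p = 0.0656) and with trend and robust moderation (adjusted p = 0.0625), and Cdkn2b with array weights (adjusted p = 0.0551).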

How the results depend on the processing

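Of the 462 genes chosen by rule or by value for the passage change 60 crossed the threshold under at least 1 alternative and none reversed while called, and of 23 chosen for the difference 5 crossed it (Tert, Pecam1, Cdkn2b, Cdkn2a and Pdgfrb). For the passage change in treated small colonies, 1049 genes were called and at least 2-fold changed (492 higher, 557 lower), and 3172 were called higher among the brighter genes alone. For the difference from large colonies, 844 genes were called and at least 2-fold different (281 higher, 563 lower). The number called higher in this difference was 2233 without genes below the median level and 2387 with arrays centred on their medians. Leaving out 1 array at a time gave 8057 to 8676 genes called with passage, 4135 to 4487 higher and 3826 to 4202 lower. For the difference it gave 5756 to 7229 called, 2963 to 4058 higher and 2793 to 3206 lower. With the replicate block the passage change was called for 8992 genes (4786 higher, 4206 lower) and the difference for 6954 (3776 higher, 3178 lower). Same-numbered treated arrays did not deviate together (correlations of -0.00503, -0.0539 and -0.0471), whereas in large colonies the correlations were 0.208, 0.0984 and 0.202 and every array correlated best with its own number, which is a hint from the data and not from the design. Low signals limit the smaller changes, since 19.4% of genes below the median level were called higher and 6.71% lower. The cause was not tested for any of these shifts.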
